A study of Homo sapiens with 6 samples.

Results

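The death receptors and FAF1 described here are 10 genes: the TRAIL receptor genes TNFRSF10A, TNFRSF10B and TNFRSF10D, the receptor genes FAS, TNFRSF1A and TNFRSF21, the signalling genes FADD, CASP8 and CFLAR, and FAF1. They were found by symbol through their Ensembl identifiers, and all 10 had a row among the 20042 genes of the count table. The choice of genes was made with the results of this comparison known, so their differences between the groups are given as a description, with no p-value, and they support nothing beyond themselves. The cells came from MDA-MB-231, a long-established line of human breast cancer, in 6 cultures. In 3 of them the cells carried a control siRNA (siCTRL, genotype WT per the labels), and in the other 3 they carried siRNA-1 against ERBBride (labelled as a knock down). The labels call the cultures biological replicates without saying how they were separated, so the spread between them may be partly technical, and with a single siRNA against ERBBride an effect of its target and an effect of that siRNA sequence cannot be told apart.

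Death receptors are members of the tumour necrosis factor (TNF) receptor superfamily that carry a death domain inside the cell. When TRAIL or FAS ligand binds, the receptor recruits the adaptor FADD, which brings in the initiator caspase-8, and the caspase-8-like protein c-FLIP, encoded by CFLAR, sets whether caspase-8 is activated. Caspase-8 then cleaves the executioner caspases directly, or cleaves BID and so engages the mitochondrial route. FAF1, the FAS-associated factor 1, binds FAS and FADD, and through its UBX domain it also binds the segregase p97 (VCP), which extracts ubiquitinated proteins for degradation.

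Total counts ranged from 12813706 to 15014434 per library. Levels are given as CPM, read counts scaled to library size with edgeR's TMM factors. In each library 3 counts came to no more than 0.233 CPM, a limit that covers counting error only. A gene is said to have risen or fallen where it passed an adjusted p of 0.05 in edgeR's quasi-likelihood test over all genes tested. One control library stood apart: the chi-square statistic per degree of freedom over genes was 11.3 and 11.4 between siCTRL 2 and the other controls, against 2.27 between those controls and 2.12 to 2.39 between siRNA-1 libraries. Results of the 10 genes that depend on siCTRL 2 are therefore given with and without it. Of the markers of the line, VIM, CD44, FN1 and AXL lay between 523 and 2711 CPM and SPARC did not exceed 1.02 CPM, and their sum was 6111 to 6431 CPM in siCTRL and 3732 to 3906 CPM in siRNA-1 libraries. CD3E, CDH5 and DCN, which mark T, endothelial and fibroblast cells, had 0 counts in every library, but other markers of these classes had counts. PECAM1 (endothelial) had a mean of 7.47 CPM in siCTRL and 4.11 CPM in siRNA-1 libraries. LUM (7.60 and 3.42 CPM) and PDGFRB (12.5 and 10.1 CPM), both fibroblast markers, were detected too. PTPRC (haematopoietic) had 2 to 13 counts per library. The summed level of 5 haematopoietic markers was 15.9 to 20.5 CPM in siCTRL and 7.61 to 8.88 CPM in siRNA-1 libraries, mostly from CD14. The sums also differed for 5 luminal (17.5 to 21.4 and 8.87 to 10.6 CPM), 3 endothelial (6.84 to 8.70 and 3.68 to 5.10 CPM) and 3 fibroblast markers (19.7 to 20.5 and 11.8 to 14.4 CPM), and their part in the results was not tested. In these bulk libraries a lower level in every cell and fewer cells with the transcript cannot be told apart.

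Of the 10 genes, FAF1, TNFRSF10B and CFLAR fell, TNFRSF21, CASP8 and TNFRSF10A rose, and FAS, TNFRSF10D, TNFRSF1A and FADD did not pass. All 10 passed the filter on low counts, FAS with the fewest counts (94 to 195 per library). The 6 genes past the threshold stand beside 62.5% of all 12440 genes tested, with 31.5% higher and 31.0% lower. The groups did not overlap at 7 of the 10 genes, against 67.6% of all genes. The 10 genes differed most in size of change: FAF1 and TNFRSF10B fell more than 2-fold, as 8.14% of all genes did, and none rose 2-fold, as 1.97% did. The next largest difference, that of FAS, was 1.29-fold. The median log2 fold change was -0.03, beside 0.006 over all genes tested.

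**Figure D1:**
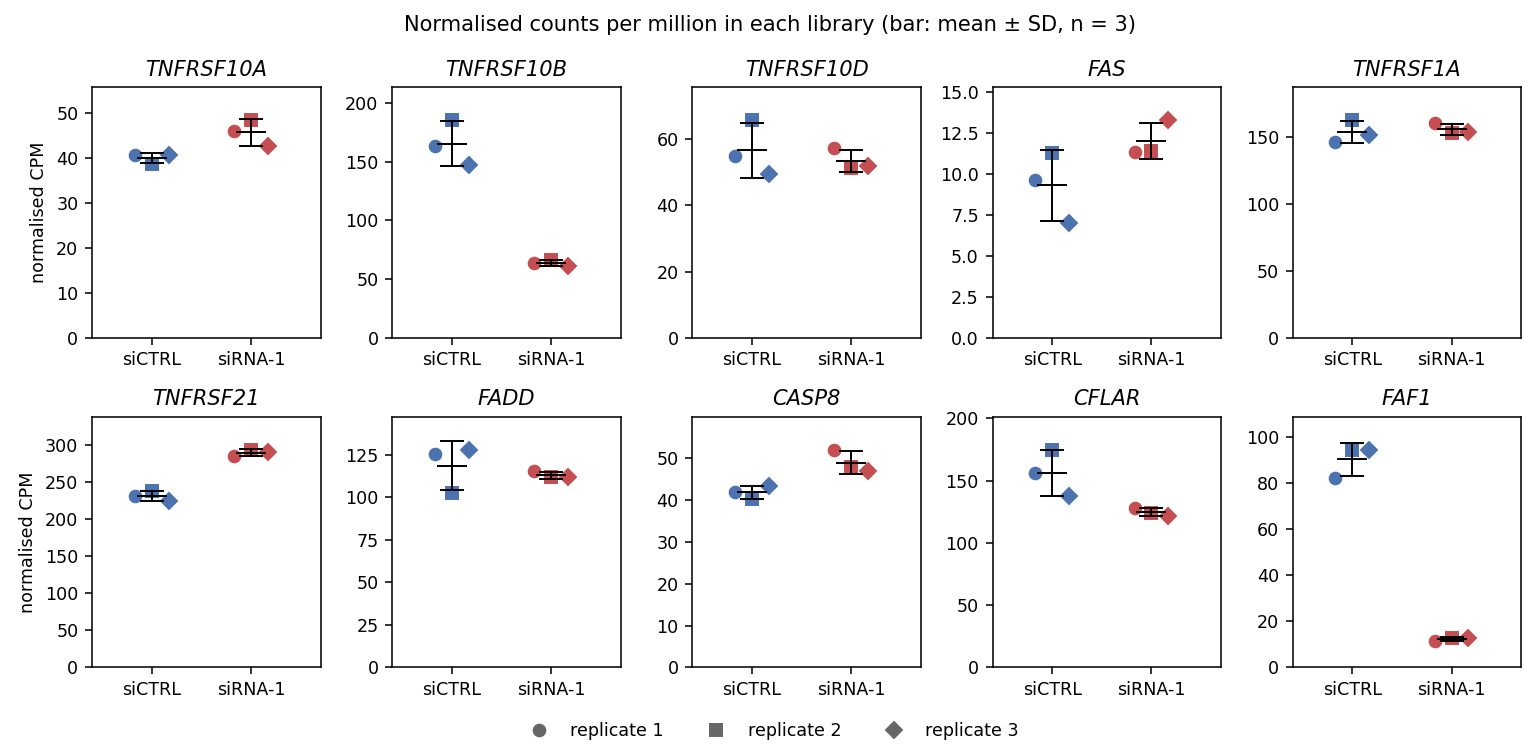
Normalised CPM (vertical axes from 0) of each of the 10 genes in the 3 siCTRL and 3 siRNA-1 libraries, with the mean and SD as bars and the replicate number as the marker shape. FAF1 lies between 82.1 and 94.6 CPM in the controls and between 11.4 and 12.9 CPM in siRNA-1 libraries, and TNFRSF10B is the 1 receptor with a wide gap between the groups.

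FAF1 had the largest difference. It lay at 82.1, 94.5 and 94.6 CPM in siCTRL 1 to 3 and at 11.4, 12.9 and 12.7 CPM in siRNA-1 replicates 1 to 3. The groups were far apart, and the lowest control held several times the level of the highest siRNA-1 library. FAF1 fell 7.31-fold, from 90.4 ± 7.17 to 12.4 ± 0.838 CPM (SD, n = 3; log2 fold change -2.87, SE 0.086), and without siCTRL 2 the fall was 7.21-fold. It was the 22nd largest fall of all genes tested. On GRCh38, FAF1 (ENSG00000185104, protein coding) lies on the minus strand of chromosome 1 from 50437028 to 50960263, and no other annotated gene overlaps its exons.

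The gene next to the start of FAF1 moved the other way. CDKN2C, which encodes a cyclin-dependent kinase inhibitor, starts 0.482 kb away and is read in the opposite direction. It rose from 40.6 ± 4.71 to 60.6 ± 4.48 CPM (SD, n = 3; log2 fold change 0.58, edgeR adjusted p = 0.000133). The next tested gene on that side, RNF11, a ubiquitin ligase subunit, rose too (log2 fold change 0.25, edgeR adjusted p = 0.00877). These neighbours were chosen by position after the values of FAF1 had been seen.

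By pattern over the 6 libraries, SNX6, PFKP and ANO6 were most like FAF1, each with a Pearson correlation of log2 CPM of 0.9997. With groups this far apart the correlation mostly restates the group difference, and 1667 of the 9838 genes compared reached 0.95. The 3 genes most like TNFRSF10B were ASNS (0.9992), EXOC7 (0.9991) and AREG (0.9991).

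The TRAIL receptors split. TNFRSF10A and TNFRSF10B encode DR4 and DR5, the receptors that pass on the death signal, while TNFRSF10D and TNFRSF10C encode decoys that bind TRAIL without a complete death domain. TNFRSF10B lay at 164, 186 and 147 CPM in siCTRL 1 to 3 and at 63.9, 66.3 and 61.1 CPM in siRNA-1 libraries. Every control lay above every siRNA-1 library, with siCTRL 2 the highest. TNFRSF10B fell by 1.37 on the log2 scale (SE 0.081), and by 1.30 without siCTRL 2. It was the 523rd largest fall.

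TNFRSF10A lay at 40.5, 38.6 and 40.7 CPM in siCTRL and at 45.8, 48.4 and 42.5 CPM in siRNA-1 libraries. The groups did not overlap, but the gap between them was narrow. Its rise of 0.19 on the log2 scale (SE 0.071) lost its call when siCTRL 1 (0.19), siCTRL 3 (0.20), siRNA-1 replicate 1 (0.19) or siRNA-1 replicate 2 (0.15) was left out. Other genes overlap 16.6% of the exonic bases of TNFRSF10A on the opposite strand, and whether the authors counted by strand is not stated in the labels.

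The decoy gene TNFRSF10D lay at 54.8, 65.9 and 49.4 CPM in siCTRL and at 57.3, 51.2 and 52.1 CPM in siRNA-1 libraries, and the groups overlapped. Its log2 fold change was -0.08 (SE 0.096), and 0.02 without siCTRL 2, the highest library. The other decoy gene, TNFRSF10C, was near the limit of detection at 0.885 ± 0.254 CPM in siCTRL and 0.928 ± 0.117 CPM in siRNA-1 libraries (SD, n = 3). It did not pass (log2 fold change 0.08, 95% interval -0.66 to 0.82, edgeR adjusted p = 0.855), a wide interval that leaves the direction undetermined at this depth.

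All 4 TRAIL receptor genes lie in one stretch of 205 kb on chromosome 8, in the order TNFRSF10B, TNFRSF10C, TNFRSF10D and TNFRSF10A (GRCh38, 23020133 to 23225126). Of them TNFRSF10B fell, TNFRSF10A rose, and the decoy genes did not pass. Next to it on the opposite strand, RHOBTB2 shares 1.30% of the exonic bases of TNFRSF10B and rose (log2 fold change 0.33, edgeR adjusted p = 0.00275).

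The remaining receptors moved little. FAS, whose product binds FAS ligand, lay at 9.65, 11.3 and 6.99 CPM in siCTRL and at 11.3, 11.4 and 13.3 CPM in siRNA-1 libraries. The groups did not overlap, but siCTRL 2 lay just under the lowest siRNA-1 library. Its log2 fold change was 0.37 (SE 0.16), which became 0.51 and passed without siCTRL 2, and was 0.20 without siCTRL 3. ACTA2 overlaps 8.93% of the exonic bases of FAS on the opposite strand.

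TNFRSF21 encodes DR6, a death receptor of neurons and immune cells among others, and had the most counts of the 10 genes. It lay at 232, 239 and 226 CPM in siCTRL and at 286, 294 and 291 CPM in siRNA-1 libraries. The replicates were close together and the groups did not overlap. TNFRSF21 rose 1.25-fold (log2 fold change 0.32, SE 0.050). TNFRSF1A, the main receptor of TNF, lay at 146, 162 and 151 CPM in siCTRL and at 160, 153 and 153 CPM in siRNA-1 libraries. The groups overlapped, and the log2 fold change was 0.02 (SE 0.057).

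Levels per kilobase of exon change the order between genes. In siCTRL the receptor order was TNFRSF21 (64.6 ± 1.88 CPM per kb), TNFRSF1A (38.3 ± 2.09), TNFRSF10B (32.1 ± 3.74), TNFRSF10D (16.0 ± 2.38), TNFRSF10A (13.5 ± 0.391) and FAS (2.19 ± 0.507), and the ranges of neighbours in this order did not overlap. In siRNA-1 libraries TNFRSF10B stood at 12.4 ± 0.502 CPM per kb, below TNFRSF10A (15.4 ± 0.991) and TNFRSF10D (15.1 ± 0.930), whose ranges overlapped (SD, n = 3). Per kilobase of exon, the gene for DR5 thus went from the highest to the lowest of the 3 well detected TRAIL receptor genes. By CPM it stayed the highest of them in siRNA-1 libraries, at 63.8 beside 53.5 for TNFRSF10D and 45.6 for TNFRSF10A. The lengths are those of all annotated exons merged, and the transcripts in these cells may be shorter.

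The genes of the signalling complex moved by small amounts and in different directions. FADD, the adaptor, lay at 126, 102 and 128 CPM in siCTRL and at 115, 112 and 112 CPM in siRNA-1 libraries. The siRNA-1 values lay between siCTRL 2 and the other controls. The log2 fold change of FADD was -0.07 (SE 0.079), and without siCTRL 2 it was -0.18 and passed. A gene on the opposite strand, AP000879.1, covers 54.9% of the exonic bases of FADD, so that reads of the pair may be mixed.

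CASP8 lay at 41.7, 40.2 and 43.3 CPM in siCTRL and at 51.9, 47.7 and 46.8 CPM in siRNA-1 libraries. All siRNA-1 libraries were above all controls. CASP8 rose by 0.23 on the log2 scale (SE 0.069), a call that was lost without siRNA-1 replicate 1 (0.18).

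CFLAR lay at 156, 175 and 138 CPM in siCTRL and at 128, 124 and 122 CPM in siRNA-1 libraries. The controls were spread more widely than the siRNA-1 libraries and all lay above them. CFLAR fell 1.25-fold (log2 fold change -0.33, SE 0.078), and by 0.25 on the log2 scale without siCTRL 2. Opposite-strand genes, CFLAR-AS1 among them, overlap 10.1% of its exonic bases.

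CFLAR, CASP10 and CASP8 stand next to one another within 171.6 kb of chromosome 2 (GRCh38, 201116104 to 201287711). CASP10, the other initiator caspase that binds FADD, fell from 13.3 ± 1.27 to 8.36 ± 1.95 CPM (SD, n = 3; log2 fold change -0.67, edgeR adjusted p = 0.00323). Of these neighbours, CASP8 therefore rose while CFLAR and CASP10 fell.

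Ratios of counts within a library do not depend on how libraries are scaled. The ratio of CFLAR to CASP8 counts was 3.74, 4.36 and 3.18 in siCTRL and 2.47, 2.60 and 2.60 in siRNA-1 libraries. The lowest control was above every siRNA-1 library, and the mean log2 ratio went from 1.90 ± 0.227 to 1.35 ± 0.044 (SD, n = 3). Part of each count reflects transcript length, so the change between groups and not the ratio itself can be read.

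The ratio of TNFRSF10B to the decoy gene TNFRSF10D was 2.99, 2.82 and 2.98 in siCTRL and 1.12, 1.30 and 1.17 in siRNA-1 libraries. The controls were close together, siCTRL 2 included, and the mean log2 ratio went from 1.55 ± 0.047 to 0.25 ± 0.109. FADD to CASP8 went from 1.50 ± 0.132 to 1.21 ± 0.053 with no overlap, while TNFRSF10A to TNFRSF10D overlapped between the groups (-0.50 ± 0.251 and -0.23 ± 0.130; SD, n = 3).

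**Figure D2:**
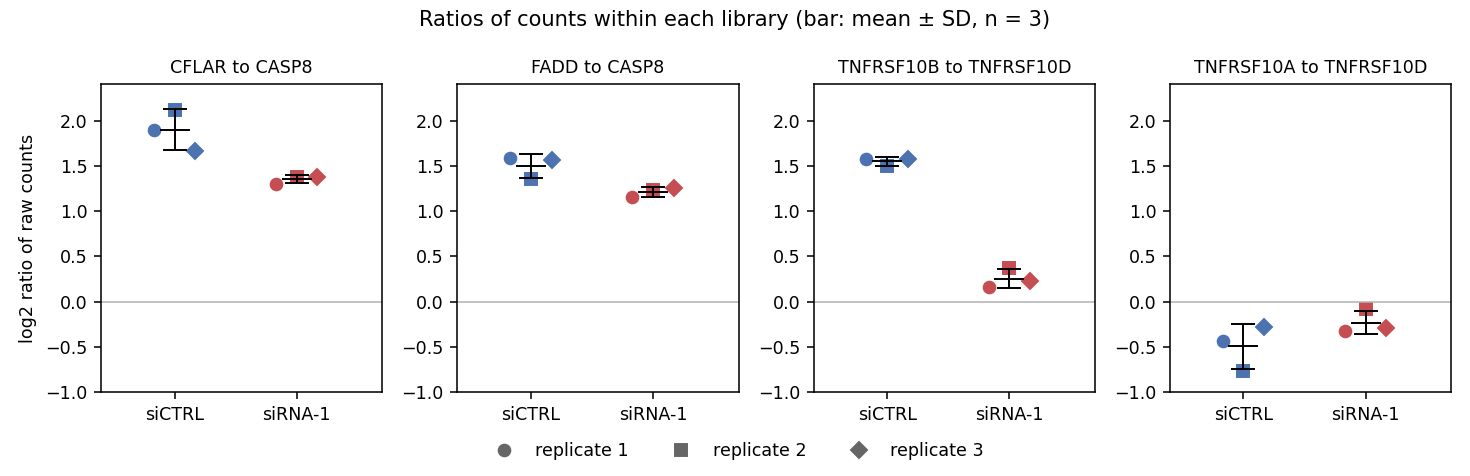
Log2 ratios of raw counts of 2 genes in the same library, for 3 siCTRL and 3 siRNA-1 libraries, with mean and SD as bars. The ratio of TNFRSF10B to TNFRSF10D shifts most, from a mean of 1.55 to 0.25, and that of TNFRSF10A to TNFRSF10D overlaps between the groups.

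The 3 genes that fell share a short sequence in their longest annotated 3' untranslated regions (UTRs). Across the transcriptome, the 7-base sequence GCTCACT was in the longest 3' UTR of 29.7% of the genes that fell in this comparison. The share was 19% over all tested genes with a 3' UTR. The sequence was picked from those same falls, so its presence here is a description and no independent evidence. In the longest annotated 3' UTR of each of the 10 genes, searched on the transcript strand, GCTCACT occurred in TNFRSF10B (2 times), CFLAR (2 times) and FAF1 (1 time), and in none of the other 7. The sites start at bases 9305 and 9769 of 12714 in the UTR of CFLAR, and at base 3470 of 4412 in that of FAF1. Whether the transcripts in these cells reach the sites was not tested.

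The bases after GCTCACT were GCAA at the site of FAF1 and at both sites of CFLAR. The run GCTCACTGCAA is a stretch common to Alu repeats, which are inserted in many human transcripts, and 44.2% of the genes with GCTCACT had it in this longer form. The sites of TNFRSF10B were not followed by GCAA.

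Long UTRs hold any short sequence more often, and these UTRs are long. That of CFLAR has 12714 bases, and 80.4% of the 102 tested genes with a UTR within 20% of that length had the sequence. For FAF1 (4412 bases) the share was 42.6%, and for TNFRSF10B (2538 bases) it was 25.2%. Over all 12275 tested genes with a 3' UTR of at least 50 bases, 19% had it.

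With the sequence picked from these falls, the values that follow, by UTR length too, are a description and no independent evidence. Of the 2335 genes with the sequence, 48.5% fell and 18.9% rose (median log2 fold change -0.23). Of the 9940 genes without it, 27% fell and 34.6% rose (median 0.05). Among genes with the longer form 42.2% fell (median -0.14), and among those with the sequence only in other contexts 53.5% fell (median -0.30). Genes with the sequence had longer UTRs (median 3238 bases) than those without it (1138 bases). When genes were split into classes by UTR length, those with the sequence fell more often in every class. In the shortest class 55.4% of the 56 genes with it fell, beside 23.3% of the 2421 without it (median -0.41 and 0.06). Among UTRs of at least 3000 bases the shares were 46.5% and 31.4% (median -0.19 and 0.01). Lengths still differed within that class (median 4908 and 4076 bases), and the part of UTR length was not tested beyond this split. FAF1 fell far more than most genes with the sequence, and the 7 other members, without it, had log2 fold changes from -0.08 to 0.37.

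**Figure D3:**
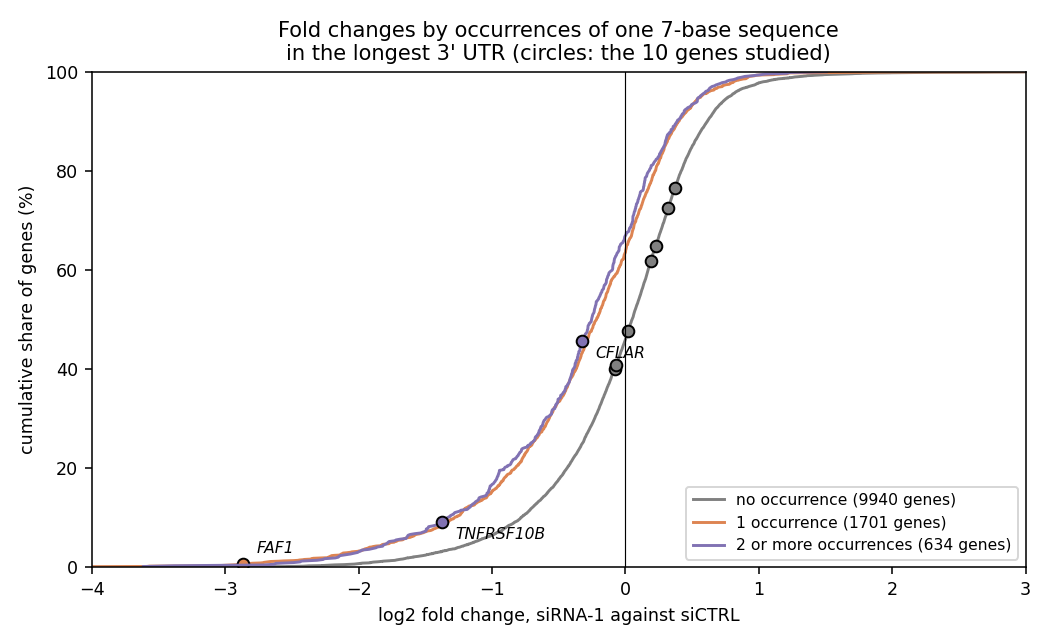
Cumulative share of genes (vertical axis, %) by log2 fold change (horizontal axis) for genes with 0, 1 or at least 2 occurrences of the 7-base sequence in the longest 3' UTR, with circles for the 10 genes. The curves of genes with the sequence, which was picked from these falls, lie to the left of the curve without it. FAF1 sits near the lower end of its curve.

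Of the pathway genes on 5 lists described next, 14 had the sequence, of which 9 fell, 3 rose and 2 did not pass. Among the falls were CASP10 (log2 fold change -0.67) and UBXN7 (-0.58). TRAF3, OTULIN and NPLOC4 had it and rose (log2 fold change 0.93, 0.45 and 0.36, with edgeR adjusted p of 1.56e-07, 3.8e-05 and 8.81e-05), and XIAP (0.07) and UBXN2B (0.06) had it and did not pass. The fall of TNFSF10 came without it.

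The 98 other genes of the pathway were taken from 5 lists, which were chosen with earlier results known. Ligands of the TNF family were mostly too low to test or lower. TNFSF10, the gene of TRAIL itself, lay at 145, 213 and 142 CPM in siCTRL and at 49.2, 49.9 and 56.0 CPM in siRNA-1 libraries. It fell 3.22-fold (log2 fold change -1.69, SE 0.14, edgeR adjusted p = 7.68e-07), and it was thus lower in the same libraries as the DR5 gene. TNFSF15, the ligand of the death receptor DR3, fell from 16.7 ± 3.64 to 4.35 ± 1.41 CPM (edgeR adjusted p = 8.76e-06), and TNFSF9, the 4-1BB ligand gene, rose from 19.8 ± 3.45 to 38.8 ± 1.20 CPM (edgeR adjusted p = 1.21e-05; SD, n = 3).

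Of the 9 ligand genes listed, 4 were tested, of which 3 fell and 1 rose, beside 62.5% of all genes past the threshold. FASLG had 0 counts in all libraries. TNF had 1, 4 and 1 counts in the controls and none after siRNA-1, too few to test. In siCTRL 2, TNFSF10 was 0.57 higher and TNFSF9 was 0.45 lower (log2) than in the other controls.

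Of 23 other receptor genes of the superfamily, 14 were tested, and 3 rose and 7 fell (71.4% past the threshold, beside 62.5% of all genes; median log2 fold change -0.23, beside 0.006). TNFRSF1B, the TNF receptor without a death domain, rose 2.78-fold from 21.4 ± 1.41 to 59.4 ± 3.32 CPM (edgeR adjusted p = 2.69e-08; SD, n = 3), whereas the death domain receptor TNFRSF1A differed by 0.02 on the log2 scale. RELT, another receptor of the family, rose 2.79-fold from 17.5 ± 2.30 to 48.9 ± 1.95 CPM (edgeR adjusted p = 1.21e-07). NGFR, the neurotrophin receptor with a death domain, fell 4.37-fold from 43.1 ± 5.69 to 9.85 ± 1.08 CPM (edgeR adjusted p = 3.78e-08). The other 9 receptor genes were too low to test.

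Partners of the receptor complex and of its ubiquitin branch, which turns the signal towards NF-kB, had 31 tested genes, of which 16 rose and 8 fell (median log2 fold change 0.22). Over all genes tested, 31.5% rose and 31.0% fell, and the difference from that share was not tested. RIPK1, the kinase shared by survival and death signalling, fell 1.73-fold from 91.7 ± 7.71 to 53.2 ± 1.84 CPM (edgeR adjusted p = 2.01e-06). TRADD, the adaptor of TNFRSF1A, fell 1.39-fold from 17.1 ± 3.19 to 12.4 ± 0.313 CPM (edgeR adjusted p = 0.00809; SD, n = 3).

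TRAF3, a ubiquitin ligase subunit that restrains the non-canonical NF-kB route, rose 1.91-fold from 60.7 ± 3.09 to 116 ± 4.29 CPM. CYLD, a deubiquitinase that limits signalling from the complex, rose 1.64-fold from 57.6 ± 2.02 to 94.6 ± 1.60 CPM (edgeR adjusted p = 7.27e-07; SD, n = 3). RIPK3 had 6, 4 and 1 counts in the controls and none after siRNA-1, too few to test. Without siCTRL 2, 18 genes of this list rose and 10 fell, beside 4329 and 4306 of all 12562 genes tested then (3921 and 3851 of 12440 with it).

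Downstream of caspase-8, 6 of 15 tested genes rose and 7 fell (86.7% past the threshold, beside 62.5% of all genes; median log2 fold change -0.02). BID, which carries the caspase-8 signal to mitochondria, rose 2.20-fold from 27.0 ± 1.63 to 59.3 ± 2.99 CPM (edgeR adjusted p = 1.4e-07; SD, n = 3). BIRC5, a mitotic protein of the inhibitor of apoptosis family, rose 1.67-fold (edgeR adjusted p = 2.68e-07). With libraries scaled to their size alone 6 rose and 4 fell, beside 4248 and 3574 of all 12440 genes. In this list 4 also fell without any 1 of the siRNA-1 libraries, when 3413 to 3468 of all genes fell.

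FAF1 is one of the UBX domain proteins that serve p97, and it is set beside the others of that family here. Of 16 tested genes 6 rose and 4 fell (median log2 fold change 0.04), which is 62.5%, the share of all genes. None of the 16 changed 2-fold, beside 8.14% of all genes that fell and 1.97% that rose by that much. With so few genes this does not set the family apart, and the difference from those shares was not tested. FAF2, the closest relative of FAF1, lay at 111, 115 and 117 CPM in siCTRL and at 164, 169 and 155 CPM in siRNA-1 libraries. It rose 1.43-fold with no overlap (log2 fold change 0.51, SE 0.056, edgeR adjusted p = 8.82e-06). VCP, which encodes p97 itself, rose 1.36-fold from 499 ± 37.3 to 677 ± 26.9 CPM (edgeR adjusted p = 6.54e-05), and UBXN7 fell 1.50-fold from 87.9 ± 10.8 to 58.7 ± 2.63 CPM (edgeR adjusted p = 8.12e-05; SD, n = 3).

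**Figure D4:**
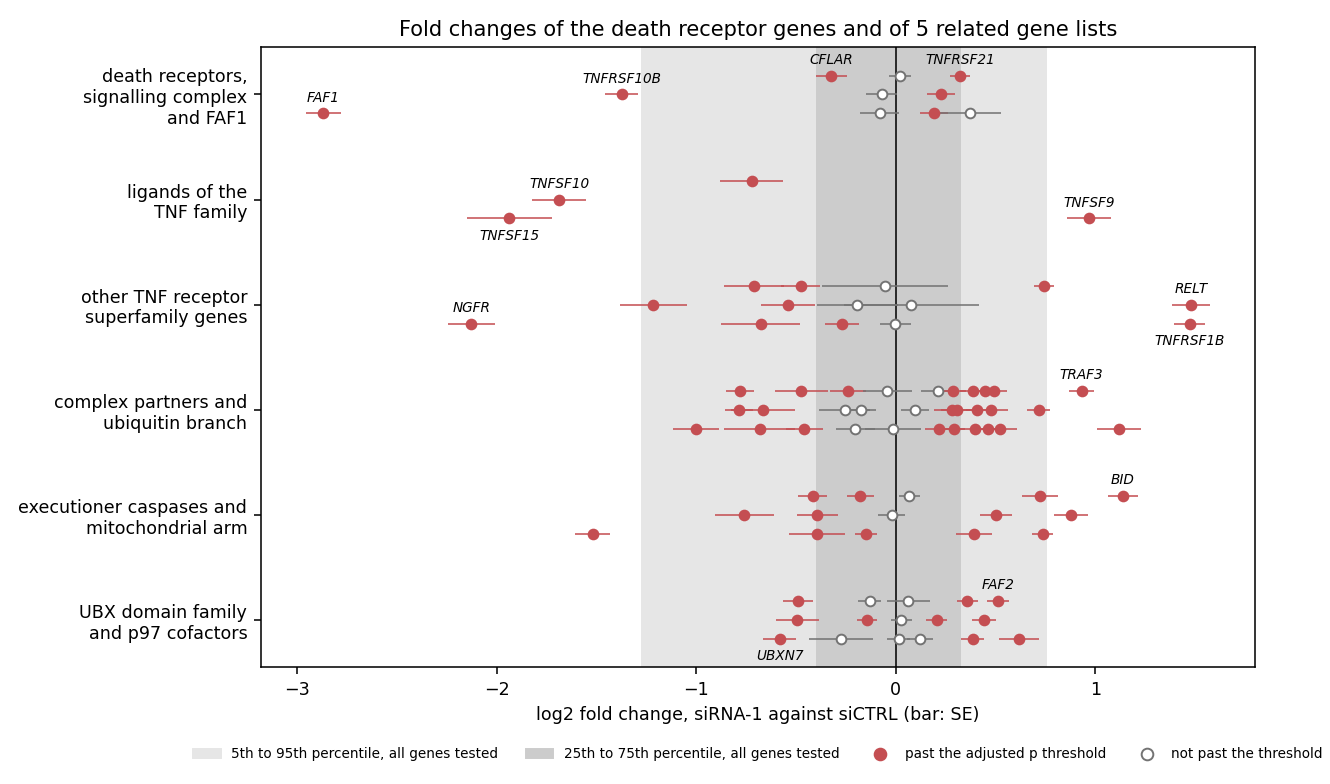
Log2 fold change of siRNA-1 against siCTRL (horizontal axis, bars are SE) for the 10 genes and the tested genes of 5 related lists, filled where past the adjusted p of 0.05, over grey bands for the middle of all genes tested. FAF1 (-2.87) and TNFRSF10B (-1.37) lie left of the 5th percentile of all genes (-1.27), and the other 8 lie between -0.33 and 0.37.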

How the data were processed

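RNA was sequenced from 6 MDA-MB-231 cultures with the NEBNext Ultra kit per the labels. The authors deposited raw counts per Ensembl gene. The submitters' processing notes name Trimmomatic, STAR, HTSeq, kallisto and build hg38. Tool versions, annotation, filters and strandedness were not given in the sources used here. All 20042 identifiers matched a symbol. Positions, exon lengths and 3' UTRs came from GENCODE 29 (GRCh38), where 19847 genes were found. ERBBride itself was not analysed here.

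The tests were run with edgeR 4.0.16 under R 4.3.3. filterByExpr (minimum count 10, minimum total 15) kept 12440 genes. Scaling was by TMM (factors 0.972 to 1.02), and the quasi-likelihood F test, two-sided, used group as its only term. Its p-values were adjusted by Benjamini-Hochberg across the 12440 genes. SEs were derived from the fold change and F. The steps were tested on simulated counts.

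The members, lists and rules were chosen with earlier results of these data known. Named were the 10 members, the 3 smallest adjusted p of each other list, 11 genes fixed by name, and the genes most like FAF1 and TNFRSF10B (mean log2 CPM of at least 3). Other genes were named after their values were seen. Alternatives were DESeq2 1.42.0 size factors and Wald test, no scaling, no filter, a mean of 100 counts, limma-voom (limma 3.58.1), a replicate block, a threshold of 0.01 and leaving out each library. Some items that are withheld are not reported here.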

Additional observations from a re-analysis of the deposited data

How the results depend on the processing

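Of the 10 genes, 6 were past the threshold, with 4 to 8 across the alternatives: 8 without siCTRL 2, when FAS and FADD passed, and 4 without siRNA-1 replicate 1 and at a threshold of 0.01. Over all genes, 7772 of 12440 passed in the main fit and 8635 of 12562 without siCTRL 2. The counts were 6848 of 12651 without siRNA-1 replicate 1 and 6206 of 12440 at 0.01. FAF1, TNFRSF10B and CFLAR fell and TNFRSF21 rose under every alternative run. TNFRSF10A also lost its call with the DESeq2 Wald test (log2 fold change 0.18), with a mean of 100 counts or more (0.15) and at 0.01, CASP8 lost it at 0.01, and FAS passed with no filter (0.38). The 18 other named genes that were tested kept their call wherever they could be fitted, and those past the threshold kept their direction. TNFRSF10C, not past it, ranged from -0.08 without siCTRL 3 to 0.30 without siCTRL 2, and TNFRSF1A (0.02) turned to -0.02 without siCTRL 1 and with a mean of 100 counts or more. No list's total past the threshold moved by more than 1.5 times, but its split could: 3 members rose, and 1 did so without siRNA-1 replicate 1 or at 0.01. The 7 falls downstream of caspase-8 were 4 under these settings, with no scaling, and without each other siRNA-1 library. Of the other receptor genes 7 fell, and 4 did among those with a mean of 100 counts or more. Deviations of same-numbered libraries had correlations of 0.0669, -0.0782 and -0.0571, and those of differently numbered libraries lay from -0.0954 to 0.115. With 3 libraries per group, these values cannot settle whether the numbers pair the cultures. With the replicate block, 5 of the 10 genes passed, since TNFRSF10A did not (0.19), and 7535 genes changed, against 7772. Genes such as FASLG, TNF and RIPK3 had too few counts to test at this depth.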
